A study of Mus musculus with 8 samples.

Results

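The receptors for follicle-stimulating hormone (Fshr), luteinising hormone (Lhcgr) and prolactin (Prlr) were examined in ATAC-seq peak lists of mouse granulosa cells. The 3 genes, of 21627 protein-coding genes placed on chromosomes 1 to 19 and X, were chosen by name. Their members were all peaks overlapping the gene body or 50 kb either side. Merging the 8 lists gave 98245 accessible regions, of which 60 lay in these windows: 18 at Fshr, 18 at Lhcgr and 24 at Prlr.

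Fshr and Lhcgr encode related G protein-coupled receptors with a large leucine-rich extracellular domain, and both signal mainly through Gs, adenylyl cyclase and protein kinase A. Fshr marks granulosa cells of growing follicles, and Lhcgr is acquired by mural granulosa cells as follicles mature, which lets them answer the ovulatory surge. Prlr encodes a class I cytokine receptor that signals through JAK2 and STAT5 and is known for its part in maintaining the rodent corpus luteum, which forms from these cells.

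All groups were granulosa cells punctured from ovaries of mice aged 21 days that had received 5 IU of eCG (also called PMSG), a hormone with FSH activity. In the LH experiment the mice were wild-type CBA x C57BL/6 F1. The 2 PMSG libraries came from mice killed 46 h after eCG, and the 2 hCG libraries from mice that then received 5 IU of hCG, which acts on Lhcgr, and were killed 6 h later. In the PR experiment, on strain C.129S7(B6)-Pgrtm1Bwo/OmcJ, 2 wild-type (WT) libraries and 2 libraries of PR knockout (KO) mice, which carry the targeted allele of Pgr (the progesterone receptor), were all taken after hCG. Each replicate pooled cells of 2 to 3 mice. Whether the WT mice were littermates of the KO mice is not given in the sources used here. The time tags of the LH libraries (0 h for hCG, 6 h for PMSG) contradict their titles and source names, so groups follow the titles. The PR libraries carry a 6 h tag but the source name pre-ovulatory.

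The lists held between 55654 (KO replicate 2) and 84313 (WT replicate 2) intervals, covering 29.8 to 43.9 Mb, with no read counts, so the depth behind a peak is unknown and a missing peak can mean low sensitivity. The PMSG lists covered less sequence (29.8 and 29.9 Mb) than the hCG lists (39.0 and 38.2 Mb), and KO replicate 2 (31.7 Mb) less than the other 3 PR libraries (38.9 to 43.9 Mb). At the start of Pgr, 1 interval was present in the 6 libraries not labelled KO, and 2 intervals separated by 272 and 394 bp in the KO libraries. Of 8 granulosa markers, 7 had a peak within 1 kb of a gene end in WT replicate 1 and 6 in each of the other libraries. Cyp19a1, the aromatase gene and a defining marker, had none in any library. Of 4 leukocyte genes, Ptprc, Csf1r and Adgre1 had none in any library, whereas Cd52 had one in both PMSG and both WT libraries and in no hCG or KO library. Of 4 theca genes, Ptch1 and Gli1 had a peak in every library, Insl3 in none, and Cyp17a1 in PMSG replicate 2 and WT replicate 1. Of 3 surface epithelium genes, Wt1 had a peak in every library, Krt19 in none, and Upk3b in both hCG libraries and KO replicate 1. Of 4 endothelial genes, Cdh5 and Kdr had one in every library and Pecam1 and Tek in none. Of 4 oocyte genes, Gdf9 had one in every library, Zp3 in hCG replicate 2 and KO replicate 1, and Bmp15 and Oosp1 in none. A peak near a gene end does not show expression, and the part of other cell types in the results was not tested.

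The receptors differed in how far the start-site peak reached upstream, so the bases there are shown first. These are the 250 bases before the Fshr start, the Lhcgr start and the first of 3 Prlr starts. They are from RefSeq (GRCm38.p6, the build named mm10 in the submitters' processing notes), 5′ to 3′ on the gene's strand, ending at the base before the start. Capitals mark motifs searched on both strands: CACGTG (E-box), GATAA (GATA) and, for Lhcgr, GGGCGG (GC box) and TGTGGT (RUNX); the second GATA motif and the RUNX motif are on the other strand and read TTATC and ACCACA.
Fshr chr17:89200676-89200925, minus strand: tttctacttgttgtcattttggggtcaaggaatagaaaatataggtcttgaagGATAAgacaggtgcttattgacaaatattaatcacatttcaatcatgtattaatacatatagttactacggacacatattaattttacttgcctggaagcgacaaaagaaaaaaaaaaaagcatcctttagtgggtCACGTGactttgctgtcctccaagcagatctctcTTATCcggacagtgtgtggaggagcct
Lhcgr chr17:88792015-88792264, minus strand: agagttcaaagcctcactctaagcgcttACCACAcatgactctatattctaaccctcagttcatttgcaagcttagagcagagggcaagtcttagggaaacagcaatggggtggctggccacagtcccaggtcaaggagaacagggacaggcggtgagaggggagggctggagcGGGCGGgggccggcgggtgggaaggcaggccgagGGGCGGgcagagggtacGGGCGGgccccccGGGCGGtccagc
Prlr, the first start, chr15:10176988-10177237, plus strand: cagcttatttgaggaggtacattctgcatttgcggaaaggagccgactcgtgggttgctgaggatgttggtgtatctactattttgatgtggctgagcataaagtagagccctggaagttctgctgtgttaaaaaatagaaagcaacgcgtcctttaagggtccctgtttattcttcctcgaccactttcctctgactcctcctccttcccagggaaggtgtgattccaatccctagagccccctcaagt

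At Lhcgr all 250 bases lay inside a peak in all 8 libraries. At Fshr the peak covered the start in all 8 libraries but reached only 16 (KO replicate 2) to 45 bases upstream, so that neither the E-box, which ends 56 bases before the start, nor the farther GATA motif was inside it. The nearer GATA motif of Fshr, 27 to 23 bases before the start, was inside the peak in every library except KO replicate 2. The sequence before the Lhcgr start was 63.2% G and C, that of Fshr 36.8% and that of the first Prlr start 48.0%, against a median of 52.4% over 32851 RefSeq promoter windows. Lhcgr held 4 GC boxes, a motif found in 32.7% of windows, and 1 RUNX motif (14.0%). Fshr held 1 E-box (6.02%) and 2 GATA motifs (22.6%). None of these motifs, nor AAGGTCA (NR5A, 4.08%), TGAGTCA (AP-1, 4.46%), TGACG (CRE core, 17.8%) or TTCNNNGAA (STAT, 7.02%), was found before the first Prlr start. The 250 bases before the later Prlr starts, not shown, held 1 TGACG and 1 TTCNNNGAA at the second start and 1 TGAGTCA at the third. CACGTG and TTCNNNGAA read the same on both strands. Motif matches are descriptions of the sequence only.

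At Prlr the peak edge differed between libraries by group in the LH experiment. In PMSG replicates 1 and 2 the peak covered the first start and 66 and 154 bases before it. In hCG replicates 1 and 2 the nearest peak edge lay 227 and 86 bp after the start. The PR libraries were mixed within genotype: WT replicate 1 and KO replicate 2 covered the start with 98 and 46 bases before it, whereas the nearest edge lay 254 bp away in WT replicate 2 and 18 bp away in KO replicate 1. RefSeq places the other two Prlr starts 46.7 and 116.4 kb after the first. None of the 8 libraries had a peak on either. The nearest peak to the second start was 2519 to 5508 bp away in the PR libraries, 3099 and 2972 bp in the hCG libraries, and 11852 and 11927 bp in the PMSG libraries.

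**Figure D1:**
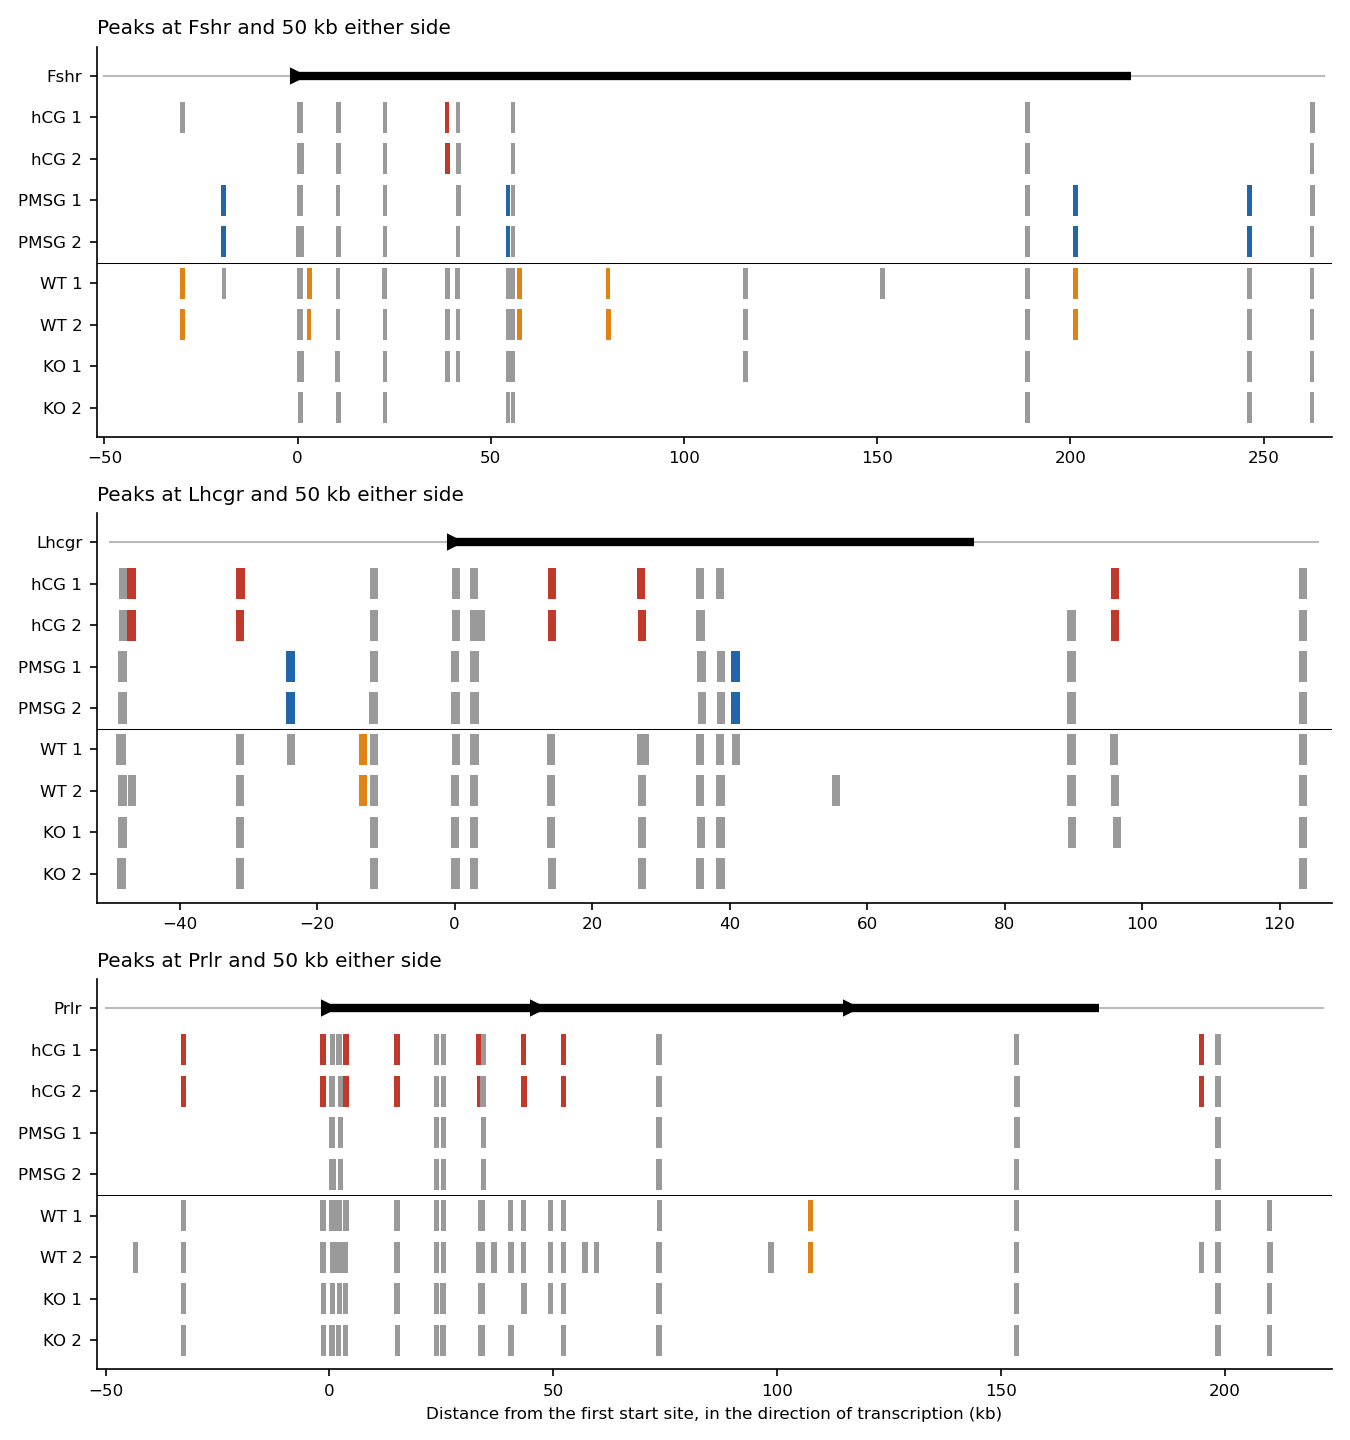
Peaks of each library (rows) against distance from the first start site in kb, in the direction of transcription; arrowheads mark RefSeq starts, the thick line the gene body, and bars narrower than 1.2 kb are drawn 1.2 kb wide. Red, blue and orange bars are regions held by both libraries of hCG, PMSG or WT and by neither of the opposed group; the hCG-only bars gather in the first part of Prlr, and the 4 PMSG-only regions at Fshr include those far downstream.

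A region was called hCG-only when both hCG libraries and neither PMSG library held it, and PMSG-only, WT-only and KO-only likewise, after merging the 4 lists of an experiment. Over the whole genome, 17.7% of 81943 LH regions were hCG-only and 10.4% PMSG-only. At Prlr, 8 of 16 regions were hCG-only and 0 PMSG-only. At Lhcgr, 5 of 16 were hCG-only (31.2%) and 2 PMSG-only (12.5%). At Fshr, 1 of 13 was hCG-only (7.69%) and 4 were PMSG-only (30.8%). PMSG-only regions were thus more numerous at Fshr and hCG-only regions at Lhcgr within 50 kb. With 100 kb either side Fshr had 4 of each and Lhcgr 9 hCG-only and 2 PMSG-only, and in gene bodies alone Fshr had 1 and 2 and Lhcgr 2 and 1. The numbers of regions in these other windows are not given here, so their counts cannot be set against the shares over all regions. With counts this small and 2 libraries per group, no region was tested singly, and no difference between the genes was tested.

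The lists differ in length, so the 55654 strongest intervals of each library were compared as well. Chosen by the authors' fold, 15.3% of all regions were hCG-only and 13.6% PMSG-only, with 4 and 1 of 14 at Prlr, 4 and 2 of 12 at Lhcgr, and 1 and 3 of 11 at Fshr. Chosen by −log10 q, an alternative added after seeing the data, the shares were 15.7% and 13.6%. Prlr then had 6 hCG-only and 1 PMSG-only of 16 regions, Lhcgr 4 and 3 of 15, and Fshr 0 and 4 of 12. Within 50 kb the larger set at each gene was the same in these 3 versions, while the hCG-only count at Prlr was 4 to 8.

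**Figure D2:**
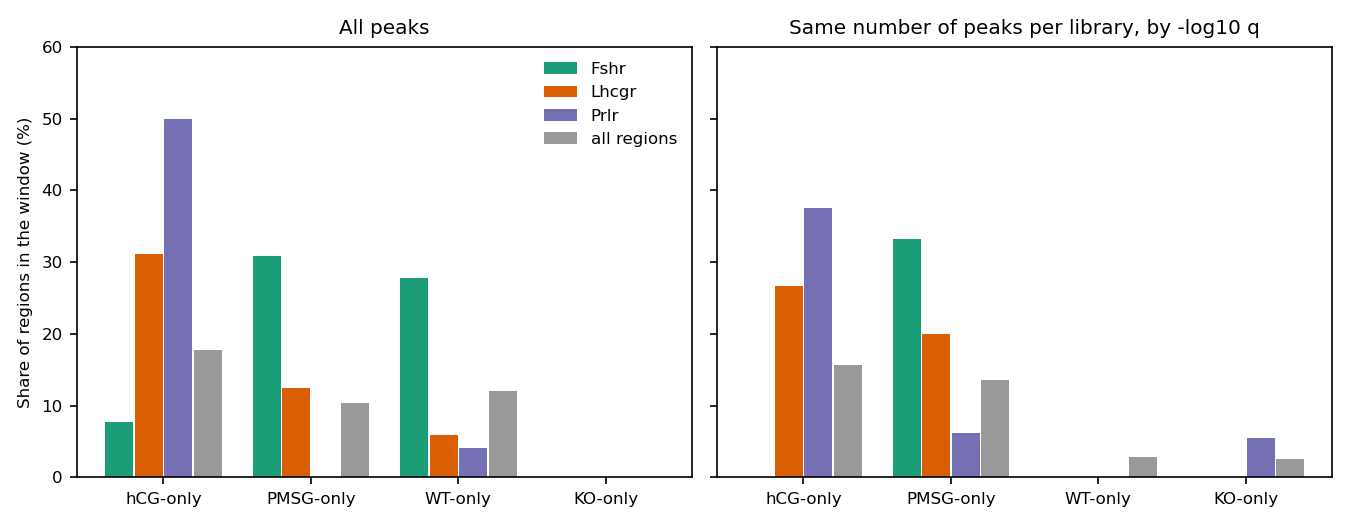
Percentage of the regions in each gene's window (bars, y axis) that were held by both libraries of one group only, with all peaks (left) and with 55654 intervals per library by −log10 q (right). Grey bars give the share over all regions; 8 of 16 Prlr regions are hCG-only against 17.7%, Fshr at 30.8% PMSG-only against 10.4%, and the WT-only bars of the left panel are absent at all 3 genes on the right.

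Fshr, the receptor that drives follicle growth, had its strongest region 22.6 kb inside the gene, at chr17:89177701-89178511. This region was held by all 8 libraries with ranks of 89.4 to 97.7, where a rank is the percentile of the authors' fold within a list and 100 is the highest. The next by mean rank, averaged here and below over the libraries that hold a region, lay 10.4 kb inside at chr17:89189768-89190737 and was also held by all 8, at 50.8 (KO replicate 1) to 90.6. The start-site region, chr17:89199074-89200720, was broad (1243 to 1642 bp) and of low rank (10.8 to 29.2) in every library. Regions beyond the 3′ end also ranked higher than the start: the one at 262.6 kb was held by all 8 libraries at 59.1 to 83.8.

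The 4 PMSG-only regions at Fshr lay 19.1 kb before the start and 54.4, 201.3 and 246.4 kb after it. The one at 246.4 kb, beyond the 3′ end of the gene at chr17:88954154-88954453, had folds of 14.3 and 17.2 in PMSG replicates 1 and 2 (ranks 81.9 and 91.7) and no peak in either hCG library. After hCG in the other strain it was present: folds were 14.1 and 9.82 in WT replicates 1 and 2 and 9.66 and 6.08 in KO replicates 1 and 2. The PMSG-only region at 201.3 kb, chr17:88999274-88999522, had folds of 7.63 and 6.98 in PMSG. Both WT libraries held it (4.45 and 4.70) and neither KO library did, so it was WT-only as well, although not with lists of equal length, where no PR list kept it. The region at 54.4 kb was weak (3.97 and 3.98 in PMSG) and was held by all 4 PR libraries (lowest 2.82, in WT replicate 1). The region 19.1 kb before the start (6.40 and 7.19 in PMSG) was held in the PR experiment by WT replicate 1 alone, with 5.20.

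The 1 hCG-only region at Fshr, 38.7 kb inside the gene at chr17:89161834-89162074, had folds of 5.12 and 6.54 in hCG replicates 1 and 2. WT replicates 1 and 2 (4.97 and 8.13) and KO replicate 1 (4.64) held it and KO replicate 2 did not. It was no longer hCG-only when the lists were equalised by −log10 q.

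A further Fshr region was held by every library and differed between the LH groups by rank. At chr17:89011631-89011969, 188.9 kb inside Fshr, all 8 libraries held a peak. With 55654 intervals per library its rank was 96.8 and 98.1 in hCG replicates 1 and 2, and 25.0 and 30.5 in PMSG replicates 1 and 2, so the groups did not overlap. Both hCG libraries ranked higher without overlap in 27.8% of 36875 regions shared by the LH libraries. The rank was 76.8 and 94.6 in WT and 91.1 and 63.9 in KO replicates 1 and 2, which overlap. This region was singled out after its values were seen.

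Lhcgr, the receptor that hCG binds, had a start-site region at chr17:88791306-88792468 in every library, 839 to 1123 bp wide. Its fold was 6.56 and 6.25 in hCG replicates 1 and 2, 7.81 and 7.49 in PMSG, 7.27 and 7.89 in WT, and 6.36 and 7.32 in KO replicates 1 and 2. In lists of equal length its rank was 20.9 and 16.2 in hCG and 34.6 and 28.1 in PMSG, so that PMSG stood higher without overlap. This order was common, as both PMSG libraries ranked higher in 45.5% of 36875 regions shared by the LH libraries. Its width was 909 and 945 bp in hCG replicates 1 and 2 and 839 and 936 bp in PMSG replicates 1 and 2, and these groups overlap. A further region just inside the gene, 2.8 kb from the start, was weak but present in all 8 libraries, with folds of 2.95 (WT replicate 1) to 3.80 (hCG replicate 1).

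Of the 5 hCG-only regions at Lhcgr, 2 lay inside the gene and had similar folds in both hCG libraries. The region 27.3 kb inside, chr17:88764238-88765236, had 10.9 and 11.2, and that 14.2 kb inside, chr17:88777725-88777971, had 10.3 and 10.9. All 4 PR libraries held both, with folds of 7.03 to 11.3 and 8.31 to 13.1. Another, 31.2 kb before the start at chr17:88822984-88823415, had folds of 10.1 and 13.3 in hCG, 14.6 and 18.8 in WT, and 11.0 and 7.78 in KO replicates 1 and 2. No PMSG library held any of these 3 regions, and all 3 were still hCG-only with lists of equal length by either ranking. The other two were weaker: one 96.1 kb from the start lies inside the neighbouring gene Gtf2a1l (5.95 and 7.93), and one 47.0 kb before the start (4.48 and 4.59) was held in the PR experiment by WT replicate 2 alone.

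The 2 PMSG-only regions at Lhcgr, 40.9 kb inside the gene and 23.9 kb before it, had folds of 2.80 and 3.19, and of 5.91 and 5.43, in PMSG replicates 1 and 2. WT replicate 1 was the only PR library to hold either. The region of highest mean rank in the Lhcgr window, chr17:88668334-88668900, lies in Gtf2a1l and was held by all 8 libraries, at 39.2 (KO replicate 2) to 92.7.

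Prlr had 8 hCG-only regions, of which 6 lay between 1.5 kb before and 52.3 kb after the first start. Between the first and the second start these were the regions at 3.7, 15.1, 33.4 and 43.4 kb, and a further one lay at 52.3 kb. The region at 15.1 kb, chr15:10192009-10192667, had folds of 10.1 and 9.84 in hCG replicates 1 and 2, of 8.05 and 11.4 in WT, and of 9.63 and 9.03 in KO. All 6 libraries taken after hCG held this region and neither PMSG library did. The region at 43.4 kb, before the second start, had 9.52 and 9.87 in hCG, 5.83 and 7.25 in WT and 8.01 in KO replicate 1, and was missing from KO replicate 2. The region at 52.3 kb had 8.85 and 8.13 in hCG, 4.74 and 6.06 in WT, and 5.40 and 4.85 in KO.

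The region of highest mean rank in the Prlr window, averaged over the 6 libraries that hold it, lay 32.6 kb before the first start, between genes, at chr15:10144476-10144878. It was hCG-only in the LH experiment. Its folds were 11.4 and 17.1 in hCG, 16.0 and 18.7 in WT, and 14.0 and 8.63 in KO replicates 1 and 2. This region and those at 15.1, 43.4 and 52.3 kb were still hCG-only with lists of equal length by either ranking. Of the remaining 4, those 1.5 kb before and 3.7 and 33.4 kb after the start had folds of 3.80 to 5.35 in hCG, and all 4 PR libraries held them. The 33.4 kb region ended at 33639 and 33759 bp in hCG replicates 1 and 2, just before a peak held by every LH library. That peak began at 33957 and 34056 bp in PMSG replicates 1 and 2. In WT replicate 1 and both KO libraries a single peak spanned both places, and merging all 8 lists gave 1 region held by all 8. The region at 194.7 kb (3.92 and 5.57) lies inside the neighbouring gene Agxt2 and was held in the PR experiment by WT replicate 2 alone. The region second by mean rank, 198.4 kb from the start, also lies in Agxt2 and was held by all 8 libraries, at 51.5 (hCG replicate 2) to 93.0 (PMSG replicate 2).

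**Figure D3:**
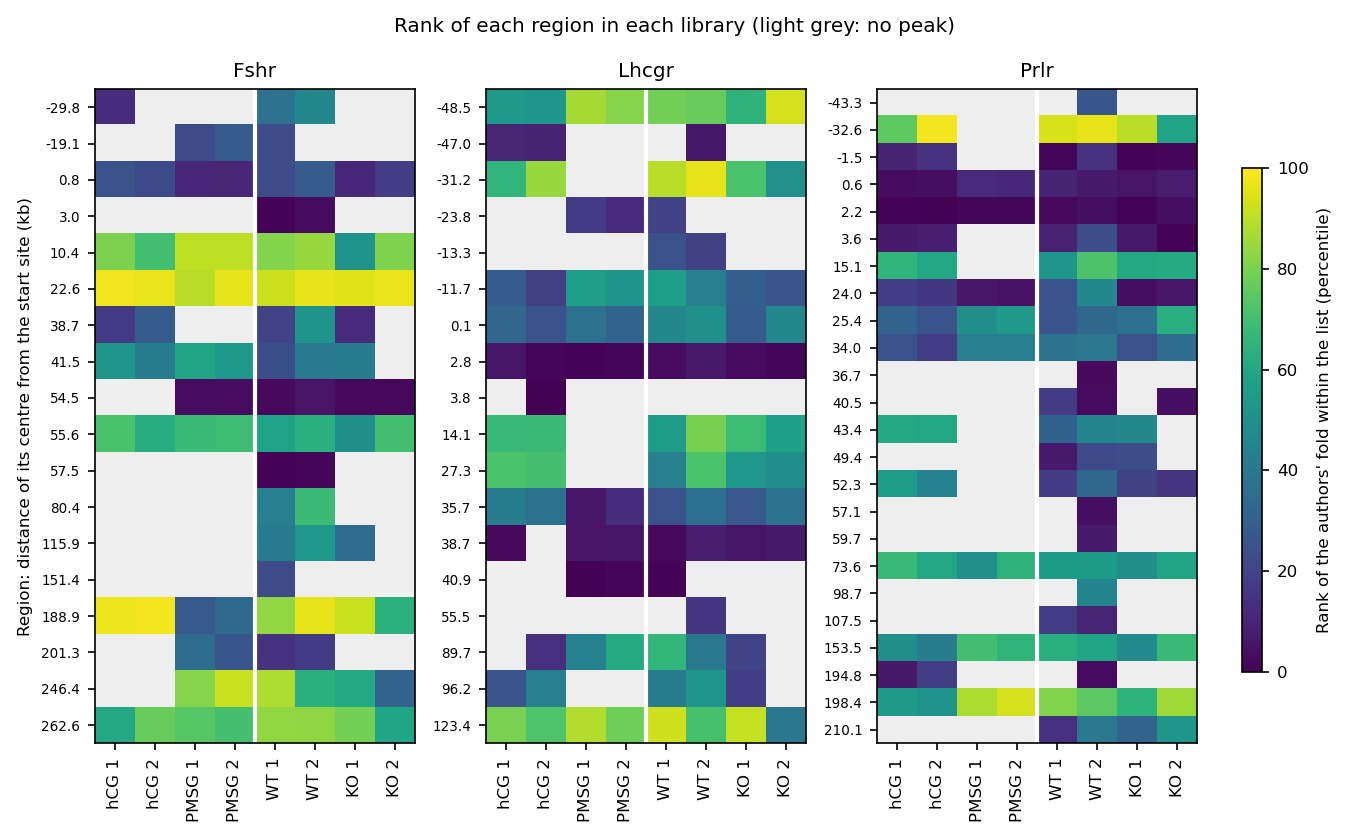
Percentile of the authors' fold within each library's own list (colour, 0 to 100) for the 60 regions of the 3 windows; rows are regions ordered by distance from the start site in kb, columns are the 8 libraries, and light grey means no peak. The region 188.9 kb inside Fshr is bright in both hCG libraries (97.3 and 98.3) and dark in both PMSG libraries (28.1 and 34.2), and the start-site rows of Fshr and Prlr are dark throughout.

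Regions held by all 4 LH libraries were compared by width and, in lists of equal length, by rank. Over the genome, both hCG libraries had the wider peak in 64.2% of 40922 shared regions and both PMSG libraries in 11.7%. At the receptors both hCG libraries were wider in 9 of 21 shared regions and both PMSG libraries in 5. At Prlr the counts were 3 and 3 of 8, at Fshr 3 and 2 of 7, and at Lhcgr 3 and 0 of 6. The widest gap was at Lhcgr, 35.7 kb inside the gene, where the peak spanned 1274 and 1285 bp in hCG and 446 and 556 bp in PMSG. The reverse was seen at the first Prlr start, at 942 and 905 bp in hCG and 1309 and 1500 bp in PMSG. By rank, both hCG libraries stood higher in 27.8% of 36875 shared regions and both PMSG libraries in 45.5%. The receptors had 4 and 11 of 17, with 0 and 4 of 5 at Prlr, 1 and 4 of 5 at Lhcgr, and 3 and 3 of 7 at Fshr.

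The sequence covered by peaks in each window was then compared over libraries. At Prlr it was 8210 and 7959 bp in hCG replicates 1 and 2 and 5379 and 5130 bp in PMSG replicates 1 and 2. At Lhcgr it was 6890 and 7259 bp in hCG and 4518 and 5050 bp in PMSG. At Fshr it was 5360 and 5261 bp in hCG and 6075 and 5714 bp in PMSG, so that Fshr alone of the 3 had the higher values in PMSG. Groups did not overlap at any of the 3 genes with these windows. The mean difference of hCG minus PMSG was 2830 bp at Prlr, 2290.5 bp at Lhcgr and −584 bp at Fshr. Each comparison gave an exact two-sided permutation p of 0.333, the smallest that 2 against 2 libraries allow (adjusted p = 0.333 over 6 tests). Among 18726 genes, 81.3% had more covered sequence in both hCG than in both PMSG libraries and 6.96% the reverse. The order seen at Prlr and Lhcgr was therefore that of most genes, and the order at Fshr that of few. The result at Fshr depended on the window. In the gene body alone and with 10 kb either side the groups overlapped, with differences of −168 and −170.5 bp (exact permutation p = 0.667 each), and with 100 kb the difference was 1559.5 bp, higher in hCG. At Lhcgr and Prlr hCG was higher in every window, but the size varied. It was 1811.5 bp (10 kb either side) to 4208 bp (100 kb) at Lhcgr, and 1882.5 bp (gene body) to 2973 bp (100 kb) at Prlr.

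As a ratio of hCG to PMSG, covered sequence was 1.54 at Prlr and 1.48 at Lhcgr, and 0.901 at Fshr, against a median of 1.28 over 18281 genes with peaks in both groups (5th to 95th percentile 0.871 to 1.91). Fshr stood at percentile 5.97 of these genes, Lhcgr at 77.1 and Prlr at 82.2. With lists of equal length by fold the ratios were 1.22 at Prlr, 1.40 at Lhcgr and 0.927 at Fshr, and the median 1.22, so that Prlr stood at percentile 50.1. By −log10 q they were 1.4, 1.36 and 0.873, with a median of 1.24, and Prlr stood at percentile 73.4.

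**Figure D4:**
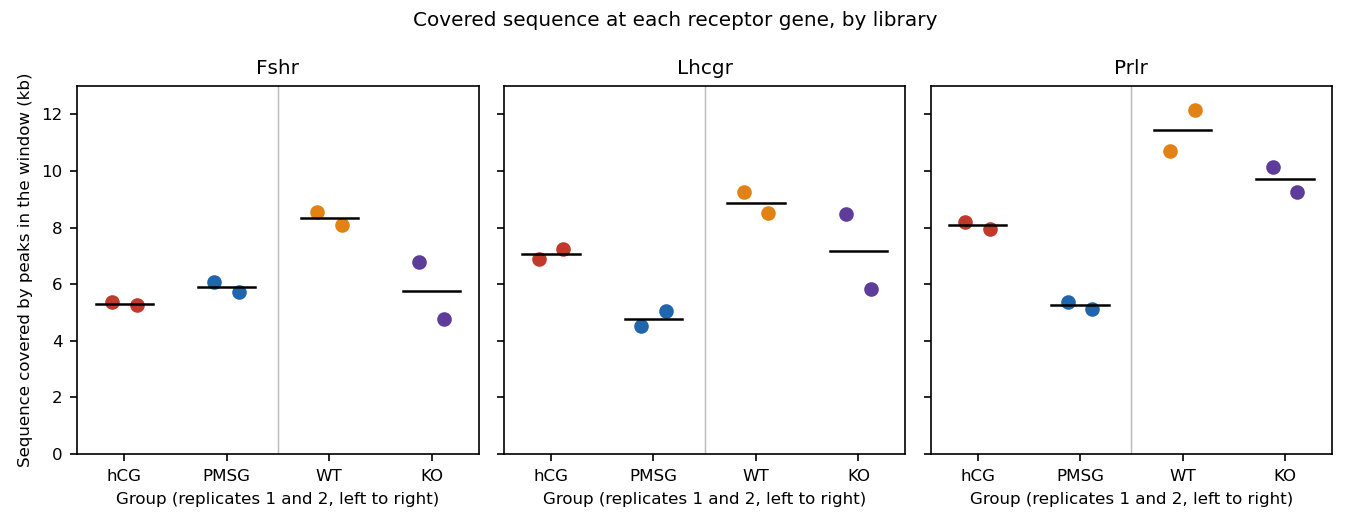
Sequence covered by peaks (kb, y axis from 0) in the window of each gene; each point is a library, replicates 1 and 2 from left to right, and black lines are group means. PMSG lies below hCG at Lhcgr and Prlr and above it at Fshr, and KO replicate 2 is the lowest PR library at all 3 genes.

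The part of the progesterone receptor was addressed by the PR experiment. With all peaks, 12.1% of 91502 PR regions were WT-only and 0.0842% KO-only. Fshr had 5 WT-only regions of 18 (27.8%), Lhcgr 1 of 17 (5.88%) and Prlr 1 of 24 (4.17%), and none of the 3 had a KO-only region. The WT-only regions at Fshr lay 29.8 kb before the start and 3.0, 57.5, 80.4 and 201.3 kb inside the gene. The strongest, at 80.4 kb (chr17:89120138-89120431), had folds of 6.93 and 10.7 in WT replicates 1 and 2, and no LH library held it. Those at 3.0 and 57.5 kb were weak, with folds of 2.36 to 2.96 and −log10 q from 10.3, near the lists' lowest value of 10. That 29.8 kb before the start was also held by hCG replicate 1. The WT-only region at Lhcgr lay 13.3 kb before the start (folds 5.30 and 4.84) and that at Prlr 107.5 kb inside the gene (4.78 and 4.05). No LH library held either. The WT lists are longer than the KO lists, and the WT-only counts were smaller when 55654 intervals were taken from each. By fold, 4.25% of all regions were WT-only and 4.16% KO-only, with 2 (at 80.4 kb and 29.8 kb before the start) and 1 of 13 at Fshr, 0 and 1 of 12 at Lhcgr and 0 and 3 of 18 at Prlr. By −log10 q the shares were 2.78% and 2.5%, and the 3 genes together had 0 WT-only and 1 KO-only region, the latter at Prlr. The 7 WT-only regions of the 3 genes became 15 without WT replicate 1 and 11 without WT replicate 2. They were 14 without KO replicate 1 and 8 without KO replicate 2. In that order Fshr had 5, 7, 8 and 5, Lhcgr 3, 3, 3 and 1, and Prlr 7, 1, 3 and 2. Prlr thus had the most without WT replicate 1, and Fshr otherwise. Leaving out a library makes the call less strict, as 1 library then stands for its group. The share over all regions is not given here for these versions.

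Covered sequence at Fshr was 8547 and 8102 bp in WT replicates 1 and 2 and 6785 and 4765 bp in KO replicates 1 and 2. At Lhcgr it was 9240 and 8518 bp in WT and 8474 and 5844 bp in KO, and at Prlr 10712 and 12149 bp in WT and 10152 and 9272 bp in KO. WT was higher at all 3 genes without overlap, as it was at 65.6% of 18788 genes, whereas 0.915% had both KO libraries higher. The mean ratio of WT to KO was 1.44 at Fshr, 1.24 at Lhcgr and 1.18 at Prlr, against a median of 1.19 (exact permutation p = 0.333 each, the smallest possible). With lists of equal length by fold the mean difference of WT minus KO was −379.5 bp at Fshr, −338 bp at Lhcgr and −2918 bp at Prlr, so that the sign of the mean turned at all 3 genes. The groups overlapped at Fshr and Lhcgr (exact permutation p = 1.0 each) and did not at Prlr (p = 0.333). The ratios of WT to KO were 0.932, 0.951 and 0.653, against a median of 1.06 and a 5th percentile of 0.753, and Prlr stood at percentile 2.48. With lists of equal length by −log10 q it was 815.5 bp at Fshr and 695.5 bp at Lhcgr, with the sign seen with all peaks, and −281 bp at Prlr, and the groups overlapped at all 3 genes. These ratios were then 1.15, 1.1 and 0.971, against a median of 1.08. With all peaks, the difference at Lhcgr was 405 bp without KO replicate 2 and 3035 bp without KO replicate 1. That at Fshr was 1539.5 bp without KO replicate 2, and that at Prlr 1000 bp without WT replicate 2.

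Among regions shared by all 4 PR libraries, both WT libraries were wider in 34.7% of 48754 and both KO libraries in 5.9%. At the receptors the counts were 12 and 1 of 32. By rank in lists of equal length, both WT libraries stood higher in 11.0% of 40604 shared regions and both KO libraries in 19.9%, with 2 and 5 of 19 at the receptors. The WT-higher regions were the hCG-only ones 31.2 kb before Lhcgr (84.7 and 95.1 in WT, 69.9 and 50.7 in KO) and 32.6 kb before Prlr (91.1 and 94.9 in WT, 89.0 and 58.4 in KO). The KO-higher regions were at 55.6 kb in Fshr, at the Lhcgr start, and at 15.1, 34.0 and 73.6 kb in Prlr. The one at 15.1 kb, also hCG-only, had ranks of 32.3 and 57.8 in WT and 58.4 and 61.4 in KO.

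The hCG-only regions of the LH experiment could be looked up in the PR libraries, which come from other mice. Both WT libraries held 12 of the 14 at the receptors and both KO libraries 9, against 78.6% and 41.8% of all 14473 hCG-only regions. At Prlr both WT libraries held 7 of 8 and both KO libraries 6 of 8. At Lhcgr the counts were 4 and 3 of 5, and at Fshr 1 and 0 of 1. Every hCG-only region at the receptors was held by at least 1 WT library, and 12 of 14 by at least 1 KO library. Of the 6 PMSG-only regions, both WT libraries held 3 and both KO libraries 2, against 43.1% and 15.4% of all PMSG-only regions. The replicates were unlike: WT replicate 1 held all 6 PMSG-only regions and WT replicate 2 held 3, and KO replicate 1 held 12 hCG-only regions and KO replicate 2 held 9. Shares over all regions are not given here for at least 1 library or for single replicates. These counts can therefore not be read as particular to the receptors. The hCG-only regions 47.0 kb before Lhcgr and 194.7 kb from the Prlr start were held by no KO library.

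Genes of the receptors' signalling pathways, with Cga, the shared subunit of the gonadotropins, were counted in the same way, with no test of a difference from the receptors. Around 24 genes of gonadotropin receptor signalling, 80 of 382 regions were hCG-only (20.9%) and 31 PMSG-only (8.12%), against 17.7% and 10.4% of all regions. hCG-only regions were more numerous at 18 genes and PMSG-only regions at 2. With lists of equal length by fold these were 14 and 4 genes. No such tally over all genes is given here. Prkar2b, a regulatory subunit of protein kinase A, had 8 and 2 of 34, and Pde4d, which degrades cyclic AMP, 8 and 1 of 35. Adcy9, an adenylyl cyclase, had 4 and 5 of 31. These 3 genes had, in lists of equal length by fold, 4 and 2 of 18, 8 and 2 of 35, and 3 and 6 of 24. Around 12 genes of prolactin receptor signalling 31 of 160 regions were hCG-only (19.4%) and 11 PMSG-only (6.88%). With lists of equal length by fold these were 21 and 15 of 137 (15.3% and 10.9%), and 66 and 38 of 335 (19.7% and 11.3%) in the gonadotropin list, against 15.3% and 13.6% of all regions. Stat3, Stat5a and Stat5b, whose windows share regions, had 9 and 6 of 30, 6 and 5 of 23, and 6 and 5 of 28. In the equal lists PMSG-only regions were the more numerous at these 3 genes, at 6 and 8 of 27, 5 and 6 of 21, and 4 and 6 of 25. In the PR experiment WT-only regions made up 17.4% of 431 regions of the gonadotropin list and 9.94% of 161 of the prolactin list, against 12.1% of all regions, and KO-only regions 0 and 1 in number. With lists of equal length by fold, WT-only and KO-only regions were 5.99% and 4.79% in the gonadotropin list and 2.31% and 5.38% in the prolactin list, against 4.25% and 4.16% of all regions.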

How the data were processed

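ATAC-seq of 8 granulosa cell libraries was deposited as 1 narrowPeak list per library. Per the submitters' processing notes, Bowtie2, MACS2 and mm10 were used; versions, filters and any Tn5 shift are not given in the sources used here. A prefix naming filtering and duplicate marking stands in the peak names of the PR experiment and not in those of the LH experiment. Column 7 of the deposited lists was read as fold enrichment (a ratio within the library), columns 8 and 9 as −log10 of p-values and q-values, none with a −log10 q under 10. The deposited score in column 5 was not used.

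Summits sharing an interval were joined with their best fold. Intervals sharing 1 bp were merged into regions with pandas 2.3.3 in Python 3.11.15. Genes and start sites came from RefSeq tables of GRCm38.p6, which give no exons. Group-only calls have no p-value. Covered length was tested by exact permutation (SciPy 1.17.1). The code was tested on simulated data. Described singly were start-site regions, group-only regions and the 2 highest-ranked regions per gene; from lists, the 3 genes with most group-only regions. The Fshr regions at 188.9 kb and 262.6 kb, the Lhcgr regions at 2.8 and 35.7 kb and the regions named for a rank order between WT and KO fall outside this rule and were chosen after their values were seen. The genes, lists and regions were chosen with earlier results of these data known.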

Additional observations from a re-analysis of the deposited data

How the results depend on the processing

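Alternatives moved counts and, for 4 of the 6 covered lengths, directions. The 14 hCG-only regions at the 3 genes were 9 with lists of equal length by fold, 8 in gene bodies only, 9 with 10 kb and 22 with 100 kb either side. The 6 PMSG-only regions were 3 in gene bodies only and 3 with 10 kb either side. The 7 WT-only regions were 2 with lists of equal length by fold and 0 by −log10 q, and 8 to 15 when 1 library was left out. The 0 KO-only regions became 5 and 1 with those lists. The numbers of regions in the other windows, and the shares over all regions with a library left out, are not given here. Covered length turned from −584 to 1559.5 bp for hCG minus PMSG at Fshr with 100 kb either side. For WT minus KO it became −379.5 bp at Fshr, −338 bp at Lhcgr and −2918 bp at Prlr with equal lists by fold, and −281 bp at Prlr by −log10 q. The cause was not tested. With the replicate number as a block, the exact permutation gave the same differences (2830 bp at Prlr between hCG and PMSG) with p = 0.5 throughout, the smallest possible. The numbers do not show that samples were paired: replicate differences correlated at 0.022 over genes in the LH experiment and at −0.00707 in the PR experiment. Unknown depth and 2 libraries per group limit every comparison.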

Other observations

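Receptors of the same families were looked at beside the 3 genes. Around 6 leucine-rich repeat receptors related to Fshr and Lhcgr, 13 of 68 regions were hCG-only (19.1%) and 9 PMSG-only (13.2%), against 17.7% and 10.4% of all regions. With lists of equal length by fold these were 6 and 11 of 59 (10.2% and 18.6%), against 15.3% and 13.6% of all regions. Tshr, the thyrotropin receptor, had 2 and 2 of 11, Lgr4 5 and 2 of 20, and Lgr6 3 and 3 of 18, and in the equal lists 1 and 3 of 10, 0 and 2 of 13, and 3 and 4 of 18. Around 10 class I cytokine receptors related to Prlr, 16 of 99 regions were hCG-only (16.2%) and 8 PMSG-only (8.08%), and with lists of equal length by fold 15 and 10 of 92 (16.3% and 10.9%). Osmr, a receptor subunit for oncostatin M, had 4 and 2 of 11, Ghr, the growth hormone receptor, 2 and 3 of 10, and Csf2rb 4 and 0 of 4, and in the equal lists 4 and 2 of 10, 2 and 3 of 9, and 3 and 0 of 4.

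As a description over the 8 libraries, covered length in each window as a share of the library's total was compared between genes. The share at Lhcgr and that at Prlr had a Pearson r of 0.657, whereas Fshr had −0.113 with Lhcgr and −0.191 with Prlr. The 3 genes most like Fshr were Gm6583 (r = 0.98), Olfr411 (0.974) and Tfip11 (0.971), those most like Lhcgr were Vax1 (0.976), Raph1 (0.965) and Barhl2 (0.965), and those most like Prlr were Iqch (0.989), Dnaja2 (0.985) and Parp8 (0.98). They were the highest of 17978 (Fshr) or 17976 genes, all points share the libraries' sensitivity, and no p-value is given.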
